A study of Mus musculus with 11 samples.

Results

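Bidirectional promoters were taken as pairs of protein-coding genes of the mm9 annotation that lie on opposite strands, are transcribed away from each other and have transcription start sites (TSSs) at most 1 kb apart. Among 22,367 protein-coding genes the rule found 791 such pairs, which hold 1,582 genes and lie on 20 chromosomes. The region of a pair runs from 250 bp inside one gene to 250 bp inside the other. The distance between the TSSs had a median of 141 bp and ranged from 1 to 987 bp. The promoters of 19,653 other protein-coding genes, 501 bp centred on the TSS, served as single promoters, so that 20,444 promoter regions were counted in all. A further 419 pairs of head-to-head genes that overlap were not used.

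A bidirectional promoter is a stretch of DNA from which transcription starts in opposite directions. Such promoters are mostly CpG islands, and many of their genes are housekeeping genes of DNA repair, mitochondria and RNA processing. PU.1 recognises DNA through an ETS domain whose sites are built around the letters GGAA, and mice without it lack macrophages and B cells. Its level falls as erythroid cells mature, and in mouse erythroleukemia its locus is activated by the spleen focus forming virus.

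PU.1 occupancy was measured by chromatin immunoprecipitation and sequencing (ChIP-Seq) in both MEL cells and ES-EP. MEL cells are a mouse erythroleukemia line, clone 4 by the labels, which stably carries GATA-1 fused to the estrogen receptor (ER) and was grown in puromycin. ES-EP are erythroid progenitors derived from mouse embryonic stem cells and kept in Epo, IGF-1, dexamethasone and SCF. Each cell type had 2 chromatin preparations, A and B, each sequenced as 2 libraries that were summed. MEL cells had 1 input library and ES-EP had 2, also summed. The labels name no markers that ChIP reads could be checked against, so the cell types are given as labelled. On the nuclear chromosomes MEL A and MEL B had 5,697,937 and 6,987,141 reads, ES-EP A had 6,284,725 and ES-EP B 7,095,855, and the inputs had 4,278,560 (MEL) and 7,488,885 (ES-EP). The pairs held between 0.161% (MEL A) and 0.473% (ES-EP A) of the ChIP reads, against 0.092% of the MEL input and 0.181% of the ES-EP input. With a median of 4 MEL and 15 ES-EP input reads per pair, the MEL ratios of single pairs carry the wider counting error.

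The sequences under the highest PU.1 ChIP signal are shown for the 6 pairs that had the highest ChIP over input in their lowest preparation among the pairs above input in both cell types. Each is 200 bp of the plus strand of mm9 around the highest 100 bp window of the summed ChIP reads, and the capitals mark GGAA and its reverse complement TTCC, the core of the ETS site. They lie at chr6:113328058-113328257 (Tada3-Arpc4), chr15:58765226-58765425 (Tatdn1-Ndufb9), chr13:31065847-31066046 (Exoc2-Gm5447), chr2:132641672-132641871 (Trmt6-Mcm8), chr17:79336281-79336480 (Cebpz-2410091C18Rik) and chr16:33056445-33056644 (Iqcg-Rpl35a).

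Tada3-Arpc4: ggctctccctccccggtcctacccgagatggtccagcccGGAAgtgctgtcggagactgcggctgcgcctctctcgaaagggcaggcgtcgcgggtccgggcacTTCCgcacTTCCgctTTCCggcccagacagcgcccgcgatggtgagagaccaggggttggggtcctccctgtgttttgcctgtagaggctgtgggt
Tatdn1-Ndufb9: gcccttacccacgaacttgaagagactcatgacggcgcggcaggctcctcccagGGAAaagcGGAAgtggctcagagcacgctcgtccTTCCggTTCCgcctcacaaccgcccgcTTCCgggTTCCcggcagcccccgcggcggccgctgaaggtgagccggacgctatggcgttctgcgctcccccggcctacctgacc
Exoc2-Gm5447: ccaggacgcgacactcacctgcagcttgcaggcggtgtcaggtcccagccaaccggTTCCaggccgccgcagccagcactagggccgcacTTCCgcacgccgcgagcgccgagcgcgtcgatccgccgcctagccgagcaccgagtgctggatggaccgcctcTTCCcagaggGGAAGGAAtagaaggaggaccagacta
Trmt6-Mcm8: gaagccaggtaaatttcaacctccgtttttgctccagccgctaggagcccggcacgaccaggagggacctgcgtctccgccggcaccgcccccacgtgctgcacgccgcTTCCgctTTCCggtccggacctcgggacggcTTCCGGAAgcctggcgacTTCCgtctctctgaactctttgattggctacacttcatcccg
Cebpz-2410091C18Rik: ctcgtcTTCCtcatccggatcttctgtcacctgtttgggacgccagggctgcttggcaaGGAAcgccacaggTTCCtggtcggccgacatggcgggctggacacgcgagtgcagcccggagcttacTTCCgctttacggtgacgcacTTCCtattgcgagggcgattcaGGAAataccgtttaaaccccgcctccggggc
Iqcg-Rpl35a: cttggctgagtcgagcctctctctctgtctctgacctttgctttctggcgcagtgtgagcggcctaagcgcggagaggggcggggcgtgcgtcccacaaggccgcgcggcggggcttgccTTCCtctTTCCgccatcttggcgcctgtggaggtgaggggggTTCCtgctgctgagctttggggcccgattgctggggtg

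The core stands 4 times in the Tada3-Arpc4 window, 6 times in Tatdn1-Ndufb9 and Cebpz-2410091C18Rik, 5 times in Exoc2-Gm5447 and Trmt6-Mcm8, and 3 times in Iqcg-Rpl35a. At least 1 GGAA core on either strand was found in such a window of 721 of the 791 pairs (91.2%), in 124 of the 124 pairs above input in both cell types and in 484 of the 550 pairs above input in neither (88%). The median number of cores was 3 in the pairs above input in both and 2 in those above input in neither. The core is short and frequent, and a match is a description of the letters, not a site.

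Tada3-Arpc4 carried the most ChIP reads of all pairs in each of the 4 preparations. Tada3 encodes an adaptor of histone acetyltransferase complexes and Arpc4 a subunit of the actin-nucleating Arp2/3 complex, and their TSSs lie 230 bp apart. The region held 180 reads in MEL A, 414 in MEL B, 575 in ES-EP A and 358 in ES-EP B, where the depth-scaled input was 5.33, 6.53, 5.87 and 6.63 reads. The ChIP was 50.1-fold over input in MEL cells (95% exact interval 19.5 to 184) and 74.6-fold in ES-EP (36.1 to 186), and these intervals cover counting error only. The highest window lay at the same position in both cell types, 50 bp inside Arpc4. The printed window holds CCGGAAGT, the general ETS word.

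Tatdn1-Ndufb9 came next. Tatdn1 encodes a putative deoxyribonuclease and Ndufb9 a subunit of respiratory complex I, with TSSs 80 bp apart. In the same order of preparations the reads were 153, 364, 556 and 279 over a scaled input of 7.99, 9.80, 12.6 and 14.2. The highest window lay between the TSSs in both cell types, 40 bp from either TSS in MEL cells and 30 bp from that of Tatdn1 in ES-EP.

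Exoc2-Gm5447, an exocyst subunit gene beside a predicted gene, had 90, 220, 457 and 264 reads in the same order. Its input was 2 MEL reads and 30 ES-EP reads, and the fold was 52.3 (14.4 to 434) and 13.5 (9.34 to 20.1). The MEL estimate thus rests on 2 input reads. Trmt6-Mcm8, a subunit of a tRNA methyltransferase and a helicase of homologous recombination, had 31, 67, 178 and 104 reads over a scaled input of 2.66, 3.27, 12.6 and 14.2. Both preparations of both cell types stood above input in each of these pairs, which the rule that chose them requires.

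Cebpz-2410091C18Rik, which holds the gene of a CCAAT-box binding protein, had 14, 56, 39 and 45 reads, and its input was 1 MEL read and 3 ES-EP reads. The fold was 23.6 (4.10 to 946) in MEL cells, a call that was lost without MEL B, and 15.7 (5.18 to 77.5) in ES-EP. Iqcg-Rpl35a, with the gene of a protein of the large ribosomal subunit, had 61, 103, 217 and 116 reads over a scaled input of 9.32, 11.4, 9.23 and 10.4. Its highest window lay 5 bp inside Rpl35a in both cell types. In all 6 pairs the ChIP over input was lowest in a MEL A or ES-EP B library set, as it was over the pairs as a whole.

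**Figure D1:**
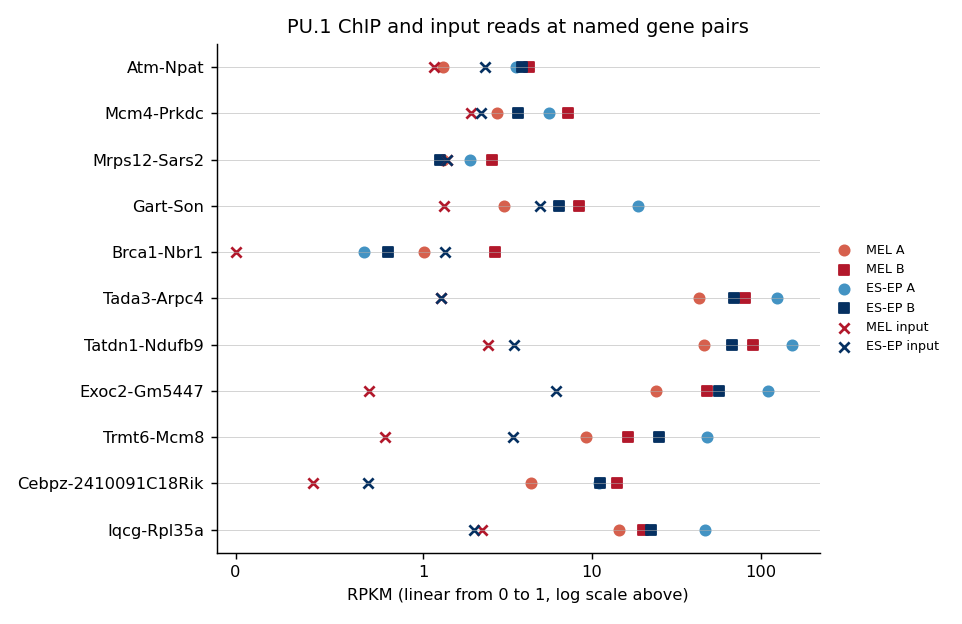
PU.1 ChIP and input RPKM, the reads per kb of region and 1,000,000 nuclear reads (horizontal axis, linear from 0 to 1 and logarithmic above) at the 5 textbook pairs and the 6 pairs of highest ChIP over input, 1 row per pair, with a point for each preparation and a cross for each input. At the lower 6 pairs, which were chosen as above input in every preparation, all 4 preparations lie to the right of both inputs. At Mrps12-Sars2 the points of MEL A and ES-EP B lie just left of the inputs and those of MEL B and ES-EP A to the right.

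Of 11 divergent pairs well known from the literature, 5 met the rule, of which 2 were above input in at least 1 cell type. Gart-Son, a purine synthesis gene beside a gene of a splicing cofactor, had 18, 62, 125 and 48 reads over a scaled input of 7.99, 9.80, 32.7 and 37.0. It was above input in MEL cells (4.50-fold, adjusted p = 5.5e-04, exact binomial test) and in ES-EP (2.48-fold, adjusted p = 1.2e-06, exact binomial test). Neither call held with the stronger preparation alone left out, since without MEL B or without ES-EP A the pair no longer passed.

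Mcm4-Prkdc, the genes of a subunit of the replicative helicase and of the catalytic subunit of DNA-dependent protein kinase, had 15, 49, 34 and 25 reads over a scaled input of 10.7, 13.1, 13.4 and 15.2. It passed in MEL cells (2.70-fold, adjusted p = 0.0448, exact binomial test) and missed in ES-EP (2.06-fold, adjusted p = 0.084, exact binomial test). This order turned when reads were shifted by 50 bp, where ES-EP passed and MEL cells did not. The mean MEL log2 ratio was 1.14 with the 70 bp shift used throughout for MEL cells and 1.10 with 50 bp. The MEL call was also lost without MEL B, where the ratio was 0.46, and in the 501 bp window, where it was higher at 1.76. ES-EP passed without ES-EP B. The windows around their maxima, at chr16:91647178-91647377 (Gart-Son) and chr16:15637894-15638093 (Mcm4-Prkdc), are shown to set these familiar promoters beside the strongest pairs, with the same capitals.

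Gart-Son: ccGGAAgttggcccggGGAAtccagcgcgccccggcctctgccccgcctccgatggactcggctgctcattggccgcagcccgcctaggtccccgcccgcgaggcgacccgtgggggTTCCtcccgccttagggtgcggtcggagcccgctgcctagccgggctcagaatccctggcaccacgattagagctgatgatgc
Mcm4-Prkdc: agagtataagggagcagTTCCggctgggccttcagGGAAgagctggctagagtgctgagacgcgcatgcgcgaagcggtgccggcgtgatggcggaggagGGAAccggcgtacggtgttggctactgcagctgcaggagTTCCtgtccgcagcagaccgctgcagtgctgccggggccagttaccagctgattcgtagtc

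The Gart-Son window begins with a CCGGAAGT word and lies at the Gart end of the region, with the highest window 70 bp (MEL) and 80 bp (ES-EP) from the TSS of Gart. In Mcm4-Prkdc the highest window lay 34 bp (MEL) and 24 bp (ES-EP) inside Prkdc. Atm-Npat, the genes of the DNA damage kinase and of a histone gene coactivator, had 6, 24, 18 and 22 reads over a scaled input of 5.33, 6.53, 11.8 and 13.3 and passed in neither cell type. The values were 5, 12, 8 and 6 reads for Mrps12-Sars2 (mitochondrial ribosomal protein and seryl-tRNA synthetase), whose scaled input was 5.33, 6.53, 5.87 and 6.63. Brca1-Nbr1, a homologous recombination gene and an autophagy receptor gene, had 4 and 13 reads and no input read in MEL cells and 3 and 4 reads in ES-EP, where the scaled input was 5.87 and 6.63. At these 3 pairs an excess of PU.1 was not detectable by the test at this depth, except that Brca1-Nbr1 passed in MEL cells without MEL A.

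Over all pairs, 184 of 791 (23.3%) stood above input in MEL cells and 181 (22.9%) in ES-EP, where a region was called when the summed ChIP reads exceeded input at an adjusted p below 0.05 (two-sided exact binomial test, Benjamini-Hochberg over all 20,444 regions) and both preparations were higher. The number of pairs called depended on the preparation: it was 56 without MEL B and 287 without MEL A, and in ES-EP 84 without A and 250 without B. With a preparation left out, only the remaining preparation had to be higher. The call with both preparations was made for 9.69% of all promoter regions in MEL cells and for 7.99% in ES-EP. Of the single promoters, 9.14% were above input in MEL cells and 7.39% in ES-EP. Single promoters that were CpG-rich (GC of at least 50% and an observed over expected CpG of at least 0.6) reached 19.4% and 14.9%, and the others 1.32% and 1.62%. The test is on reads, as MEL cells have a single input library, and the share of regions called depends on the width of the region.

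The CpG-rich single promoters are the closer comparison, since 84.2% of the pairs and 43.4% of the single promoters were CpG-rich. All pairs were compared with them, whether CpG-rich or not. When the pairs were counted in 501 bp around their midpoint, the width of the single promoters, 153 (19.3%) passed for MEL cells and 171 (21.6%) for ES-EP. The 501 bp of single promoters are centred on the TSS, while those of pairs hold neither TSS when the TSSs are more than 501 bp apart. At equal width, though not at equal position, the share in MEL cells was close to that of CpG-rich single promoters (19.4%). In ES-EP it was higher (21.6% against 14.9%). This difference of shares was not tested, because regions are not replicates.

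Both cell types shared most of the called pairs. PU.1 was above input in both at 124 pairs, which is 67.4% of the MEL calls and 68.5% of the ES-EP calls. At CpG-rich single promoters the shared calls were 52.9% of the MEL calls and 68.5% of the ES-EP calls. A total of 60 pairs were called in MEL cells alone, and 34 of these (56.7%) had more reads than scaled input in both ES-EP preparations, as 59.7% of all pairs did. Of the 57 called in ES-EP alone, 41 (71.9%) did so in both MEL preparations, against 66.9% of all pairs.

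The pairs varied widely among themselves. The log2 ratio of ChIP to scaled input, with 1 read added to each, had a median of 0.46 in MEL A, 1.41 in MEL B, 0.75 in ES-EP A and 0.29 in ES-EP B. The 10th and 90th percentiles were -0.94 and 2.13 in MEL A, -0.03 and 3.01 in MEL B, -0.35 and 2.16 in ES-EP A and -0.65 and 1.39 in ES-EP B. At least 2-fold more ChIP than input was found at 260 pairs in MEL A, 502 in MEL B, 316 in ES-EP A and 152 in ES-EP B. In all 4 preparations together, 79 pairs reached a log2 ratio of 1, 18 reached 2 and 3 reached 3, namely Tada3-Arpc4, Tatdn1-Ndufb9 and Exoc2-Gm5447. These counts were not made at single promoters and do not set the pairs apart. More reads than scaled input were found at 68%, 89%, 81% and 64% of the pairs in the same order of preparations. At CpG-rich single promoters the shares were 75%, 93%, 78% and 59%.

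The preparations differed in overall level. MEL B was higher than MEL A and ES-EP A higher than ES-EP B over the pairs as a group, and the ratios of both preparations of a cell type rose together across the pairs. Across the 791 pairs Pearson's r of the log2 ratios was 0.84 between the MEL preparations and 0.77 between those of ES-EP. The preparations of a cell type share their input, which adds to these values. Between the cell types r ranged from 0.275 (MEL A and ES-EP B) to 0.459 (MEL B and ES-EP A). Pairs are not independent replicates, and the values are given as a description.

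**Figure D2:**
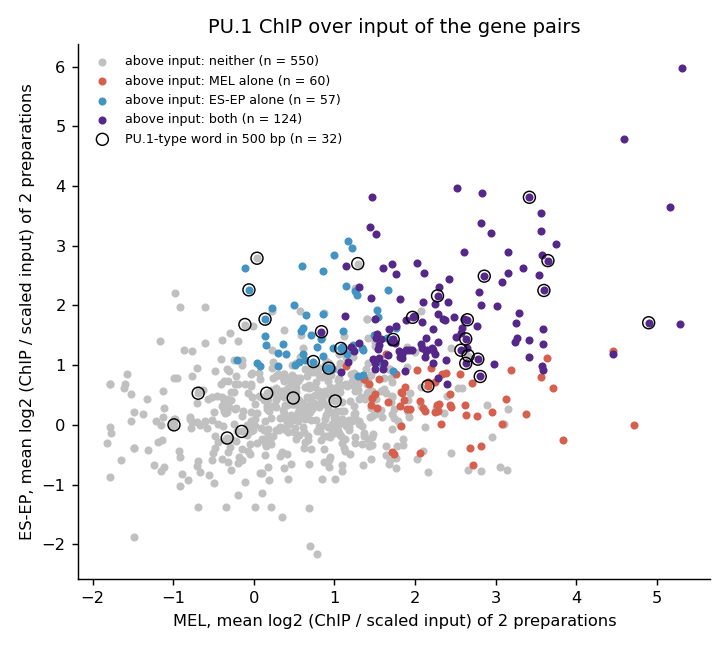
Mean log2 ratio of PU.1 ChIP to scaled input of each of the 791 pairs in MEL cells (horizontal axis) and ES-EP (vertical axis), each the mean of 2 preparations, coloured by the call above input and ringed where the 500 bp around the midpoint hold GAGGAAGT. The 124 pairs called in both cell types fill the upper right, and 32 pairs are ringed.

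To ask whether bidirectional promoters differ in level from promoters of single genes at equal width, ChIP over input was taken in 500 bp around each TSS. The median log2 ratio around the TSSs of pairs was 0.38 in MEL A, 1.37 in MEL B, 0.75 in ES-EP A and 0.24 in ES-EP B. It was 0.15, 0.91, 0.19 and 0.05 around single TSSs. The median of the pairs was higher in 4 of 4 preparations. The mean difference was 0.36 ± 0.18 (SD, n = 4 preparations) on the log2 scale (two-sided exact sign-flip permutation p = 0.125, the smallest that 4 preparations allow). Among TSSs with at least 5 input reads the mean difference was 0.15.

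Against CpG-rich single promoters, whose medians were 0.72, 1.60, 0.62 and 0.17, the order differed by cell type. The pairs were lower by log2 differences of -0.33 in MEL A and -0.24 in MEL B and higher by 0.13 in ES-EP A and 0.07 in ES-EP B. The cell types did not overlap in this difference, but 2 against 2 preparations cannot reach significance (ES-EP minus MEL 0.39, two-sided exact permutation p = 0.333, the smallest possible). The MEL difference moved with a filter on the input: among TSSs with at least 5 input reads it was -0.05, and the ES-EP value was 0.13. This filter also changes which TSSs are compared, and the part of the sparse MEL input in the difference was not tested. All pairs were used, whether CpG-rich or not, and the part of this unlike composition was not tested either.

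**Figure D3:**
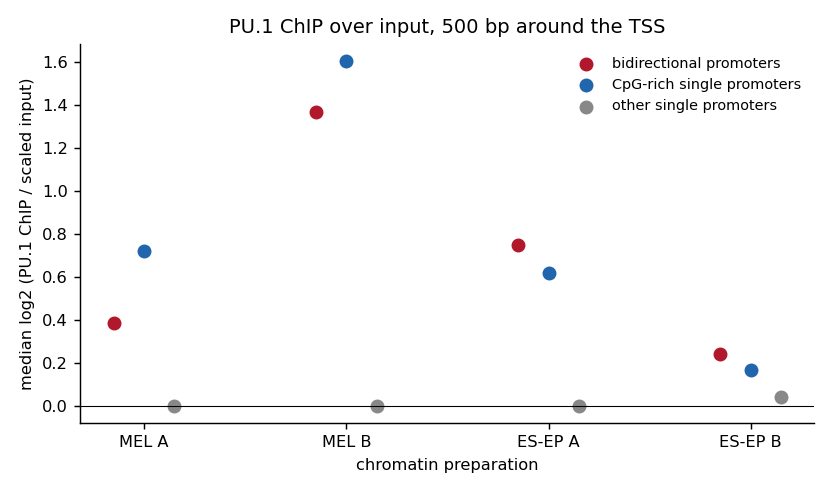
Median log2 ratio of PU.1 ChIP to scaled input in 500 bp around the TSS (vertical axis) in each preparation (horizontal axis) for pairs, CpG-rich single promoters and other single promoters. The pairs lie below CpG-rich single promoters in MEL A (0.38 against 0.72) and MEL B and above them in ES-EP A (0.75 against 0.62) and ES-EP B. Other single promoters, with a median of 1 input read in either cell type, lie at or near 0.

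Both ChIP and input reads were denser where the TSSs were close together. Pairs with TSSs 1 to 50 bp apart (n = 109) had a median RPKM (reads per kb of region and 1,000,000 nuclear reads) of 2.98 in MEL A, 6.12 in MEL B, 6.82 in ES-EP A and 4.84 in ES-EP B. In pairs 401 to 1000 bp apart (n = 111) the medians were 1.66, 2.98, 3.76 and 2.78. The wider class was lower in all 4 preparations, and in the inputs too, at 1.32 against 1.76 (MEL) and 2.16 against 4.17 (ES-EP). Relative to input the classes lay closer: the median log2 ratio was 0.45, 1.66, 0.90 and 0.24 in the closest class and 0.15, 1.09, 0.66 and 0.22 in the widest. The share above input was 26.6% and 27.5% (MEL cells and ES-EP) in the closest class and 17.1% and 18.9% in the widest, although a wider region holds more reads. Base composition in the 500 bp around the midpoint moved with the spacing. The median GC content was 64.6% in the closest class and 56.4% in the widest, and 93.6% and 54.1% of these pairs were CpG-rich. These 500 bp hold neither TSS in pairs more than 501 bp apart. The part of base composition in the densities was not tested.

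The shape of the signal changed with spacing as well. In pairs with TSSs at most 100 bp apart the mean ChIP density formed a single peak over the midpoint. In pairs 401 to 1000 bp apart (n = 109 after the pairs with the most reads were left out) the density between the TSSs was 1.41 RPKM in MEL A, 2.57 in MEL B, 3.78 in ES-EP A and 2.36 in ES-EP B. In the 250 bp inside both genes it was 1.99, 3.92, 4.98 and 3.19. The ratio of the inner to the outer density was 0.706, 0.656, 0.759 and 0.740, and in the inputs it was 0.885 (MEL) and 0.839 (ES-EP), so that all 4 ChIP preparations lay below both inputs.

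In pairs 51 to 100 bp apart (n = 182) the order turned, and the density between the TSSs was 1.30, 1.55, 1.87 and 1.64 times that inside the genes, against 1.26 and 1.48 in the inputs of MEL cells and ES-EP. Pairs 201 to 400 bp apart lay between these classes at 1.01, 1.02, 1.28 and 1.09. For comparison, the 250 bp upstream of CpG-rich single TSSs had 0.646, 0.655, 0.684 and 0.668 times the density of the 250 bp downstream. Inside the genes of widely spaced pairs, as downstream of single TSSs, reads were thus denser than upstream. The ES-EP input had the same tilt at single promoters (0.643) and the MEL input a weaker one (0.875).

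**Figure D4:**
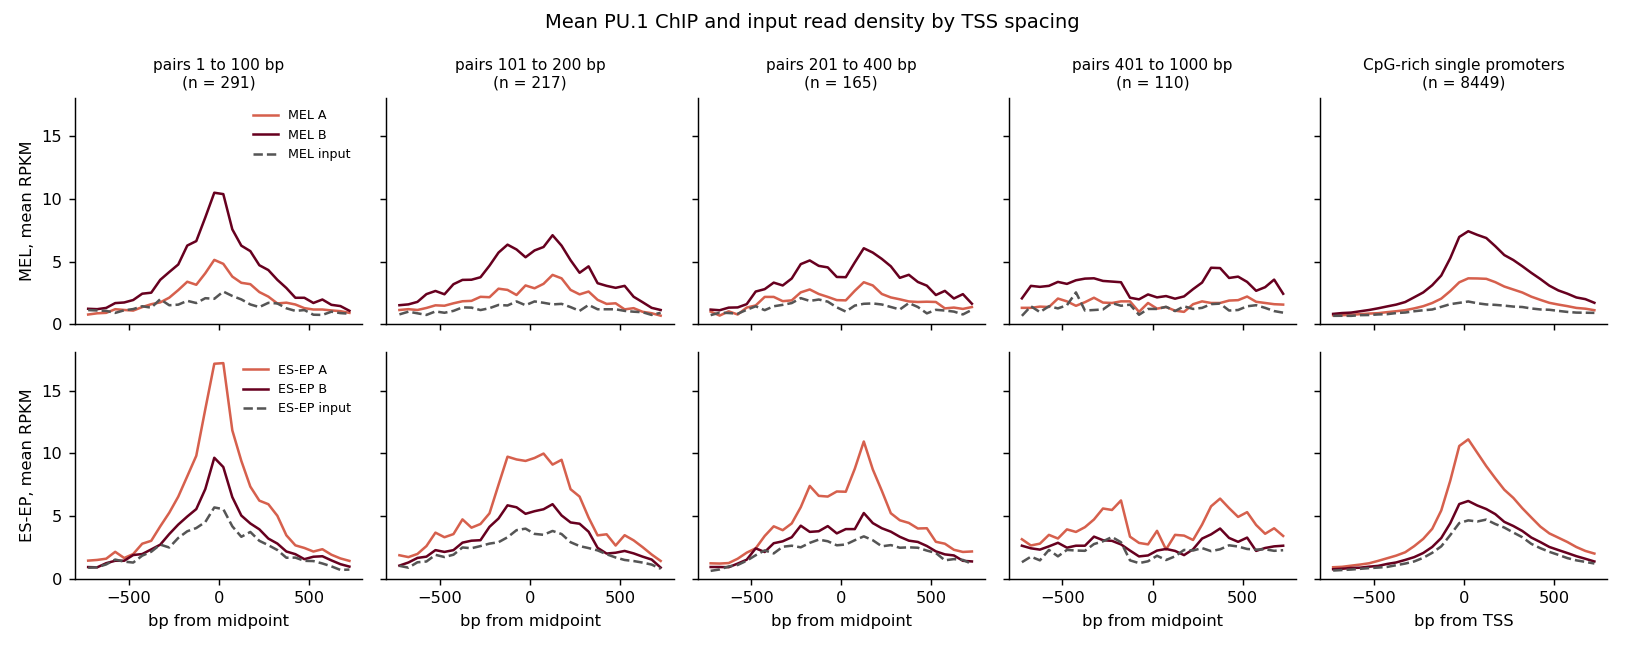
Mean read density (RPKM, vertical axes) in 50 bp bins along the distance from the midpoint of pairs, in 4 classes of TSS spacing, and from the TSS of CpG-rich single promoters (gene to the right), for both preparations and the input of MEL cells (upper row) and ES-EP (lower row), without the 1% of regions with the most reads in each class. Closely spaced pairs show 1 peak over the midpoint, and in pairs 401 to 1000 bp apart the density is lower between the TSSs than inside the genes.

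The position of the highest 100 bp window was then read for each called pair. In MEL cells 51 of 184 called pairs (27.7%) had the centre of this window between the TSSs, and in ES-EP 65 of 181 (35.9%). By preparation the share was 29.1% in MEL A, 33.2% in MEL B, 31.7% in ES-EP A and 34.8% in ES-EP B, and the stretch between the TSSs made up 23.0% to 23.4% of these regions. The shares of the preparations of both cell types overlapped. In pairs 401 to 1000 bp apart the share lay below that of the stretch, at 42.1% against 54.5% (MEL cells, n = 19) and 47.6% against 54.3% (ES-EP, n = 21), and in pairs 51 to 100 bp apart above it, at 30.6% against 13.3% and 33.3% against 13%. At 201 to 400 bp it was 24.2% in MEL cells and 41.2% in ES-EP, over a stretch of 35.1%. The cell types also lay on opposite sides of the stretch in pairs 1 to 50 bp apart, where the window was between the TSSs in 1 of 29 called pairs in MEL cells (3.45% against 5.26% of the regions) and in 8 of 30 in ES-EP (26.7% against 4.94%). The window lay between the TSSs or at most 50 bp inside a gene in 58.7% of called pairs in MEL cells and 61.9% in ES-EP, a stretch that made up 38.4% and 38.6% of the regions.

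Relative to the nearer TSS, the highest window had a median position 34 bp inside the gene (MEL) or 25 bp inside it (ES-EP). At single promoters that were CpG-rich it was 20 bp downstream of the TSS in MEL cells (n = 1,650) and 10 bp downstream in ES-EP (n = 1,273). The search window of single promoters reached 500 bp upstream, so that the 2 sets of positions are not measured over the same stretch. The highest windows of ES-EP A and ES-EP B lay a median of 20 bp apart and within 50 bp at 157 of 180 pairs (87.2%). Those of MEL A and MEL B lay 35 bp apart and within 50 bp at 108 of 172 (62.8%), and those of MEL cells and ES-EP 20 bp apart and within 50 bp at 107 of the 124 pairs called in both (86.3%).

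**Figure D5:**
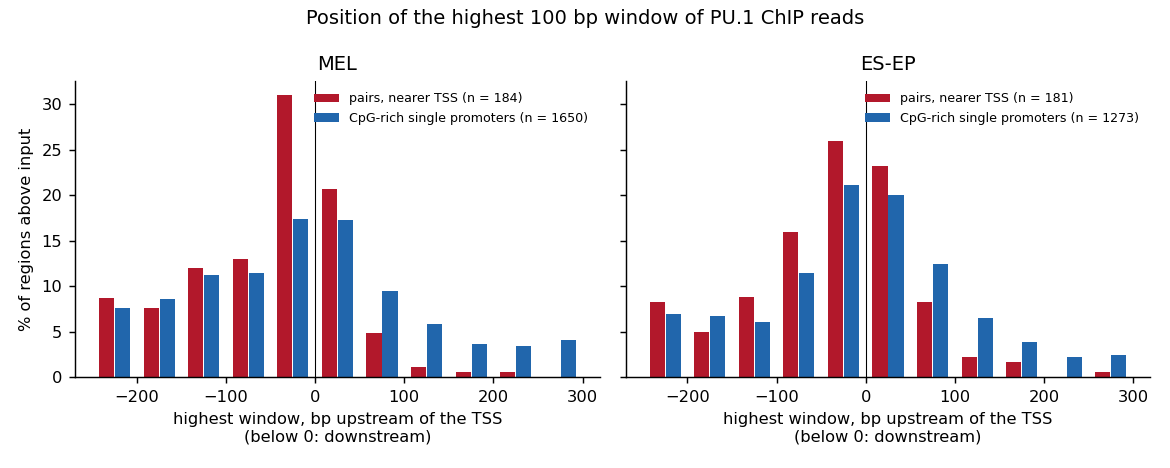
Position of the highest 100 bp window of ChIP reads (horizontal axis, bp upstream of the nearer TSS of a pair or of the TSS of a CpG-rich single promoter, below 0 inside the gene) as the share of regions above input (vertical axis) in MEL cells and ES-EP, in bins of 50 bp with positions beyond 250 bp in the last bin. In the pairs 31% (MEL) and 26% (ES-EP) of the windows fall in the first 50 bp inside the nearer gene.

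The ETS words of the promoters were compared next. GAGGAAGT, a word of the PU.1 type, stood on either strand of the 500 bp around the midpoint in 32 pairs (4.05%), in 4.41% of single promoters and in 3.02% of CpG-rich ones. CCGGAAGT, a general ETS word that shares the letters GGAAGT, stood in 123 pairs (15.6%), in 4.78% of single promoters and in 9.12% of CpG-rich ones. The general word was thus more frequent in pairs than in either set of single promoters, and the share with the PU.1-type word lay between theirs. Both words stood in 5 pairs, named here after their values were seen: Timm23-Parg, Ccdc157-Sf3a1, Dnajc2-Psmc2 and Cog8-Nip7 were above input in both cell types and Cyb561d2-Nprl2 in neither.

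Pairs with GAGGAAGT had the higher occupancy. Their median log2 ratio was 1.29 in MEL A, 1.77 in MEL B, 1.71 in ES-EP A and 1.01 in ES-EP B, against 0.45, 1.41, 0.72 and 0.24 in pairs without it. The mean difference was 0.74 ± 0.27 (SD, n = 4 preparations), higher in 4 of 4 preparations (two-sided exact sign-flip permutation p = 0.125, the smallest possible). Of these 32 pairs 16 (50%) were above input in MEL cells and 20 (62.5%) in ES-EP. Of the pairs without the word in the 500 bp around the midpoint, 22.1% and 21.2% were. Over the whole regions 40 pairs held the word, of which 16 were above input in MEL cells and 21 in ES-EP. CpG-rich single promoters showed a similar gap of 0.77 ± 0.18 (SD, n = 4 preparations).

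Pairs with CCGGAAGT differed less. The differences of the medians were 0.06 in MEL A, 0.16 in MEL B, 0.48 in ES-EP A and 0.21 in ES-EP B, with a mean of 0.23 ± 0.18 (SD, n = 4 preparations; two-sided exact sign-flip permutation p = 0.125). In ES-EP 39 of the 123 pairs (31.7%) were above input against 21.3% of those without the word, and in MEL cells 24.4% against 23.1%. In the 500 bp around the midpoint CCGGAAGT was more frequent in closely spaced pairs (24.8% at 1 to 50 bp, 1.80% at 401 to 1000 bp). Closely spaced pairs also had the denser reads. These 500 bp hold neither TSS in pairs more than 501 bp apart, as in Gart-Son, whose CCGGAAGT lies outside them. The frequency of the word near the TSSs was not compared by spacing.

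The highest window lay near the word more often than the share of the region near it, in pairs above input and in pairs not above input. That share treats all positions of a region alike, and nearness to a TSS was not taken into account. Counted over the whole regions, 40 pairs held GAGGAAGT and 131 CCGGAAGT. Among pairs above input the highest window was within 50 bp of a GAGGAAGT in 7 of 16 pairs in MEL cells and 10 of 21 in ES-EP, where such positions make up 16.2% and 15.8% of the regions. For CCGGAAGT this held at 16 of 34 pairs in MEL cells and 24 of 42 in ES-EP, over 15.7% and 16.4% of the regions. In pairs not above input the shares were 37.5% and 21.1% for GAGGAAGT, over 13.9% and 13.7% of the regions. For CCGGAAGT they were 34% and 38.2%, over 17.6% and 17.4%.

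The pairs were also read by the function of their genes, from 10 lists that 143 pairs entered through either gene. Genes of DNA replication and repair stood in 32 pairs, of which 11 (34.4%) were above input in MEL cells and 10 (31.3%) in ES-EP, against 23.3% and 22.9% of all pairs and 9.69% and 7.99% of all promoter regions. Their median log2 ratios were 0.67, 1.72, 1.04 and 0.54, each above the median of all pairs in the same preparation (0.46, 1.41, 0.75 and 0.29). Trmt6-Mcm8 was the highest of them. Prim2-1700001G17Rik, with the gene of the large primase subunit, had 23, 50, 69 and 47 reads over a scaled input of 2.66, 3.27, 8.39 and 9.48.

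Orc3-Rars2, an origin recognition subunit beside the mitochondrial arginyl-tRNA synthetase with TSSs 13 bp apart, had 22, 39, 78 and 76 reads over 4.00, 4.90, 20.1 and 22.7. It was the only pair of 7 with an aminoacyl-tRNA synthetase gene (14.3%) that was above input, in both cell types, against 23.3% (MEL) and 22.9% (ES-EP) of all pairs, and its MEL call was lost without MEL B. Wars-Wdr25 had 9, 17, 24 and 13 reads over a scaled input of 9.32, 11.4, 7.55 and 8.53 and did not pass, although it did in ES-EP without ES-EP B.

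Genes of RNA processing stood in 41 pairs, with 11 (26.8%) above input in MEL cells and 10 (24.4%) in ES-EP, close to the shares of all pairs. Noc4l-Ddx51, 2 genes of ribosome assembly with TSSs 34 bp apart, had 46, 97, 165 and 82 reads over a scaled input of 6.66, 8.17, 26.9 and 30.3. Ddx5-Ccdc45, with the gene of an RNA helicase, had 13, 63, 55 and 25 reads. It had no input read in MEL cells, so that the MEL ratio was at least 8.55-fold when 3 input reads are taken as the limit that a count of 0 allows. Hnrnpd-4930524J08Rik, with the gene of an RNA-binding protein, had 4, 28, 36 and 28 reads, likewise with no MEL input read, and was called in both cell types. Its calls were lost without MEL B and without ES-EP A, and the ES-EP call of Ddx5-Ccdc45 also without ES-EP A.

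Of 28 pairs with genes of the respiratory chain, of mitochondrial import or of mitochondrial chaperones, 7 (25%) were above input in MEL cells. In ES-EP 3 (10.7%) were, and all of these were called in MEL cells too. The shares of all pairs were 23.3% and 22.9%, and those of all promoter regions 9.69% and 7.99%. They were Tatdn1-Ndufb9, Timm23-Parg and Atp5c1-Kin. Timm23-Parg, a subunit of the inner membrane translocase beside poly(ADP-ribose) glycohydrolase, holds both ETS words and had 41, 109, 162 and 127 reads over 4.00, 4.90, 19.3 and 21.8. Atp5c1-Kin, with the gene of the gamma subunit of ATP synthase, had 32, 85, 84 and 53 reads over 13.3, 16.3, 19.3 and 21.8, and its MEL call was lost without MEL B.

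Of 16 pairs with mitochondrial ribosomal protein genes, 4 (25%) were above input in MEL cells and 3 (18.8%) in ES-EP, near the 23.3% and 22.9% of all pairs. Mrpl49-Fau had 42, 83, 126 and 71 reads over a scaled input of 10.7, 13.1, 28.5 and 32.2. Mrps18b-Ppp1r10 had 24, 72, 104 and 75 reads over 13.3, 16.3, 7.55 and 8.53, and its MEL call was lost without MEL B. Its highest window was centred 245 bp inside Ppp1r10 in both cell types and reached past the edge of the region. This window held 82 MEL and 243 ES-EP reads, against 96 and 179 in the whole region, so that part of this signal lies outside the region. Ncapd2-Mrpl51, a condensin subunit gene beside a mitochondrial ribosomal gene, had 10, 25, 16 and 20 reads. It was called in MEL cells, where 1 input read gave 11.8-fold (1.98 to 479), and this call was lost without MEL B and with the TSSs of all transcripts. Its ES-EP reads lay near the scaled input of 15.1 and 17.1.

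Cytosolic ribosomal protein genes stood in 8 pairs, of which 1 was above input in MEL cells (Iqcg-Rpl35a) and 2 in ES-EP (with Trappc4-Rps25, at 17, 32, 51 and 26 reads over 9.32, 11.4, 10.9 and 12.3, a call lost without ES-EP A). Of all pairs 23.3% (MEL) and 22.9% (ES-EP) were called. The list was drawn by gene symbol and does not hold Fau, which encodes a protein of the small ribosomal subunit fused to a ubiquitin-like protein and whose pair Mrpl49-Fau was above input in both cell types. Rps27-Rab13 had 9, 21, 15 and 14 reads over 7.99, 9.80, 4.20 and 4.74 and passed in neither cell type. The 14 pairs with histone genes, which are divergent H2A and H2B genes for the most part, gave no call in either cell type, and with ES-EP B left out Hist1h2an-Hist1h2bp passed in ES-EP. The 3 highest, Hist1h2ah-Hist1h2bk, Hist1h2an-Hist1h2bp and Hist1h2ae-Hist1h2bg, held between 1 and 13 reads per preparation. Histone genes are near-identical copies and only reads with a unique alignment were kept, so that their reads can be undercounted. The 1 pair of nucleotide synthesis was Gart-Son.

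The list of erythroid and haematopoietic regulators and haem enzymes met the pairs only once, at Urod-Hectd3, which holds the gene of uroporphyrinogen decarboxylase of haem synthesis. It had 11, 33, 39 and 19 reads over a scaled input of 10.7, 13.1, 14.3 and 16.1 and was not above input by the test, other than in ES-EP without ES-EP B. The type IV collagen pair Col4a4-Col4a3 had 3, 8, 5 and 8 reads over 5.33, 6.53, 1.68 and 1.90 and was not above input either.

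MEL cells and ES-EP were compared directly over the 4 preparations with limma (voom, 785 pairs with at least 1 read among 19,380 regions tested). The fit used ChIP reads alone, without the input, and over the pairs the ES-EP input was the denser (median 2.77 RPKM against 1.54 in the MEL input). No pair passed an adjusted p of 0.05 in either direction, where 0.0413% of all regions were higher in MEL cells and 0.0361% higher in ES-EP. Without adjustment 43 pairs (5.48%) had a p below 0.05 against 6.8% of all regions. With limma on log2 CPM it was 33 of the 785 pairs and 1,036 of the 19,380 regions. Of the 43, 34 (4.33% of pairs, 3.83% of regions) were higher in ES-EP and 9 (1.15% and 2.97%) in MEL cells. This split was not stable, at 10 to 9 with the replicate block and 67 to 43 with scaling by the median ratio. Over all regions the split of ES-EP to MEL was 742 to 576 in the main fit. It was 469 to 600 with the block and 825 to 1,318 with that scaling. The median log2 difference (MEL minus ES-EP) was -0.50 over the pairs and -0.27 over all regions, and with scaling by the median ratio over promoters these medians were -0.13 and 0.09. With scaling by total reads the median over the pairs was -0.04 without MEL A and -0.95 without MEL B. With the median-ratio scaling 5 pairs passed (0.637%, against 0.893% of all regions, with 0.604% higher in MEL cells and 0.289% higher in ES-EP), Nubp2-Spsb3, Ppp1r3d-9030418K01Rik, Itfg1-Phkb and 2810004N23Rik-Gnpat higher in ES-EP and Mrps21-C920021L13Rik higher in MEL cells, of which the last 3 are named after their values were seen.

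The pairs with the smallest p are given with their reads, although none passed. Nubp2-Spsb3, with the gene of an iron-sulfur cluster assembly factor, had 17 and 27 reads in the MEL preparations and 133 and 88 in those of ES-EP, over a scaled input of 9.32, 11.4, 13.4 and 15.2 (log2 difference -2.24 ± 0.81 SE, limma adjusted p = 0.498). It was above input in ES-EP (7.73-fold, adjusted p = 1.4e-23, exact binomial test) and not in MEL cells. It was also the pair that passed when each library was taken as a sample. That fit counts libraries of the same preparation as replicates, which they are not. Ppp1r3d-9030418K01Rik, with the gene of a glycogen-targeting phosphatase subunit, had 4, 13, 55 and 26 reads over 1.33, 1.63, 10.9 and 12.3 (-2.21 ± 0.74 SE, limma adjusted p = 0.42) and was likewise above input in ES-EP only, a call that was lost without ES-EP A. In ChIP RPKM both ES-EP preparations lay above both MEL preparations at either pair. The pairs were chosen by the limma p of these same reads, so this order is no separate support. Relative to input the order held for Nubp2-Spsb3, whose log2 ratios were 0.80, 1.17, 3.22 and 2.46 in the order of preparations used above. It did not hold for Ppp1r3d-9030418K01Rik, where the groups overlapped with 1.10, 2.41, 2.23 and 1.02. Its MEL values rest on 1 input read. Their windows, at chr17:25023326-25023525 and chr2:178149078-178149277, are shown with GGAA and TTCC in capitals. Of the 3 pairs with the smallest p on the ES-EP side, these were the ones called in ES-EP.

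Nubp2-Spsb3: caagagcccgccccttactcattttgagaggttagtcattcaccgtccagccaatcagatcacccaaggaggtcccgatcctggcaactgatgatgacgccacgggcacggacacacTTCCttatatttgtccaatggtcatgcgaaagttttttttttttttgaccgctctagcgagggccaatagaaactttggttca
Ppp1r3d-9030418K01Rik: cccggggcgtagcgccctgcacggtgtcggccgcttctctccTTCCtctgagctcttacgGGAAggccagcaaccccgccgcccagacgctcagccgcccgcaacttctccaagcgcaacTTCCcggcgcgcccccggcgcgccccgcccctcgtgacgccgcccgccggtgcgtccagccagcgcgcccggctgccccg

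The Nubp2-Spsb3 window holds 1 GGAA core and the Ppp1r3d window 3. The third pair on this side, Rad51ap1-D6Wsu163e, had 3, 5, 21 and 20 reads and was not above input in ES-EP, where the scaled input was 18.5 and 20.9. Its MEL reads lay below the scaled input of 9.32 and 11.4. The 3 pairs on the MEL side had few reads: Med29-Paf1 5, 12, 0 and 3, Ptchd1-Gm15155 9, 16, 2 and 4, and Dnase2b-Uox 2, 5, 1 and 0. None of these 3 was above input in either cell type, and Ptchd1-Gm15155 passed in MEL cells without MEL A.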

How the data were processed

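PU.1 ChIP-Seq libraries of MEL cells and ES-EP and their input DNA were used. The deposited files list aligned reads, 1 per line, with no value beyond these lines. The authors aligned Illumina GAII reads to mm9 with ELAND (version not stated) and kept unique alignments with up to 2 mismatches. The letter in a library's name was taken as its chromatin preparation. Starts were checked against the NCBIM37 genome, which is mm9.

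The 5′ ends were moved by 70 bp (MEL cells) or 65 bp (ES-EP) and counted in the regions, repeated positions included, without mitochondrial and unplaced reads. Genes and TSSs (the most 5′ end of a gene) came from GENCODE. Input was scaled by total nuclear reads. Intervals and exact binomial tests cover counting error only, and n = 2 preparations, which may share more than separate cultures would. limma 3.58.1 (R 4.3.3) compared the cell types, without regions that had no read in any preparation, since on simulated counts these kept the fit from finding any change. Medians were compared over preparations by an exact sign-flip permutation test.

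Pairs were named by a rule: textbook divergent pairs, the 6 with the highest ChIP over input in the lowest preparation, the 3 each way with the smallest limma p, and up to 3 of each functional list. Of the pairs so named, 1 is not reported here. The members and lists were chosen with earlier results of these data known. Alternatives were repeated positions, another shift, other TSSs, spacing, scaling, filters and windows, the replicate letter and leaving out preparations.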

Additional observations from a re-analysis of the deposited data

Results flagged for a closer look

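The difference between pairs and CpG-rich single promoters took opposite signs in the cell types, lower in both MEL preparations and higher in both ES-EP preparations, and the ES-EP minus MEL difference of 0.39 on the log2 scale had the smallest exact permutation p that 4 preparations allow (0.333). At Dnase2b-Uox the library ES-EP A2 had 0.254 RPM (reads per 1,000,000 nuclear reads), which is 1 read, and the other ES-EP libraries had none. A library far from the other 3 of its cell type was looked for in 72 sets of 4 libraries and found in this 1. That is no more than chance gives, at about 1 in 20 sets. A single read beside libraries with none always meets this rule.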

How the results depend on the processing

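The letters A and B did not pair the preparations of the cell types (the deviations of the A preparations correlated with r = -0.06 over all promoters), and with the letter as a replicate block 0 pairs differed between MEL cells and ES-EP, as without it. The number of pairs above input ranged from 56 to 287 in MEL cells and from 84 to 250 in ES-EP when a preparation was left out, with the low values without MEL B and without ES-EP A. In these calls only the remaining preparation had to be higher than input. Pairs differing between the cell types numbered 1 with the TSSs of all transcripts (Rgag4-Nhsl2, named after its value was seen), 5 with scaling by the median ratio and 1 with each library as a sample (Nubp2-Spsb3). Libraries of a preparation are not separate replicates. The mean difference from CpG-rich single promoters over all preparations (-0.09) turned to 0.04 with at least 5 input reads, where the MEL value was -0.05 and that from all single promoters 0.13. With 3 reads added the MEL value was -0.17. The share of maxima between the TSSs in MEL cells was 31.1% with at most 1 read per position, 31.7% with a shift of 50 bp, 31% with all transcripts and 32.6% with windows of 50 bp, and it ranged from 29.7 to 36.9% in ES-EP and from 25 to 29.3% in MEL cells when a preparation was left out. Of 552 values of named pairs under the alternatives, 522 kept their side of the threshold and their sign, and no called value changed sign. The window of 501 bp was chosen after seeing the data. Depth limits pairs with few MEL input reads.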
